A study of Homo sapiens with 4 samples.

Results

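The genes of 8 cell surface proteins that are pursued as drug, antibody or radioligand targets in prostate cancer were examined: FOLH1, STEAP1, STEAP2, PSCA, CEACAM5, CD276, SSTR2 and GRPR. They are 8 of the 19689 protein-coding genes of the GENCODE hg38 annotation, and they were chosen by name, not by a measured value. For each gene, every accessible interval in the gene body and 50 kb either side was taken from ATAC-seq peak lists of human prostate cancer cells. ATAC-seq marks open chromatin, where the Tn5 transposase can insert sequencing adapters. C4-2B is an established adenocarcinoma line, and C4-2BER, labelled as the enzalutamide-resistant line with neuroendocrine-like cells, arose from C4-2B cells kept under enzalutamide, an inhibitor of androgen receptor signaling. Per the study's methods C4-2BER cells were kept in enzalutamide throughout culture, so the drug and the resistant state cannot be told apart. The labels give both lines the same serum-containing medium. Each line is 1 culture model with 2 libraries, which were merged before peak calling, so that there are 2 lists and 4 libraries in all. With 1 list per line no test between the lines was possible, and a site present in more cells cannot be told apart from a site more open in each cell.

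FOLH1 encodes PSMA, the membrane peptidase that radioligands for prostate cancer bind. STEAP1 and STEAP2 are neighbouring genes for multi-pass membrane proteins of the metalloreductase family, PSCA is a lipid-anchored protein of the LY6 family, and CEACAM5 encodes the carcinoembryonic antigen. CD276 encodes B7-H3, an immune checkpoint ligand, and SSTR2 and GRPR are G protein-coupled receptors for somatostatin and for gastrin-releasing peptide. Genes of this kind are read from a promoter at the start site (TSS), with distal elements inside or outside the gene body that differ between cell types. An accessible interval shows open chromatin and not expression of the gene or display of the protein.

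The windows of the 8 genes held 109 of the 149676 C4-2B intervals and 91 of the 118728 C4-2BER intervals, and 16 intervals of each list lay in the windows of both STEAP1 and STEAP2. The depth recovered from the lists was 30.2 M reads for the C4-2B list and 25.2 M reads for the C4-2BER list, a ratio of 1.20, where M is 1000000. The labels were checked against marker promoters. All 7 luminal prostate genes had a promoter interval in both lists, and of 7 neuroendocrine genes 6 had one in both and NEUROD1 in C4-2BER only. Of the basal epithelial genes TP63 and KRT5 had a promoter interval in C4-2B only and KRT14 had none. The leukocyte genes PTPRC and CD3E had none in either list. There were intervals in both lists at all 3 fibroblast genes, so a promoter interval at such a marker does not set cell types apart here.

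All 8 genes had a promoter interval in both lists, where a promoter interval overlaps 2000 bp either side of any TSS of a protein-coding transcript of the gene. Of all protein-coding genes 77.7% did. Of the 109 C4-2B intervals 28 had no overlapping C4-2BER interval, or 25.7% (Wilson 95% interval 18.4% to 34.6%), beside 37.7% of the whole C4-2B list. Of the 91 C4-2BER intervals 12 had no C4-2B interval, or 13.2% (7.71% to 21.6%), beside 20.8% of the whole C4-2BER list. These intervals cover counting error only. Outside all promoters, 22 of 77 C4-2B intervals were C4-2B-only, beside 41.9% in that list, and 9 of 62 C4-2BER intervals were C4-2BER-only, beside 22.5%. In both directions the share at the 8 genes was below that of the whole list. For C4-2BER-only intervals the counting interval included the 20.8% of the whole list. The median window of a protein-coding gene also lay below the whole lists, at 30.8% C4-2B-only and 16% C4-2BER-only. The median C4-2B-only share over the 8 genes was 18.2%. Both medians of the gene windows lay within the Wilson intervals above. Those intervals are for pooled shares and take neighbouring sites as independent, so they cannot decide whether the 8 genes differ from other genes. The lower shares are therefore not read as setting the 8 genes apart. The line-only intervals at the 8 genes were also the weaker ones: C4-2B-only intervals had a median of 27 summit reads against 49 for shared ones, and C4-2BER-only intervals had a median of 12.5 against 34. At a −log10 q of at least 10, where q is the peak caller's adjusted p-value, 14 of the 28 C4-2B-only and 1 of the 12 C4-2BER-only intervals were left. Of the whole lists, shared and line-only together, 95553 C4-2B and 63718 C4-2BER intervals were left. The strength of line-only intervals was not compared with the whole lists, so these values do not set the 8 genes apart.

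**Figure D1:**
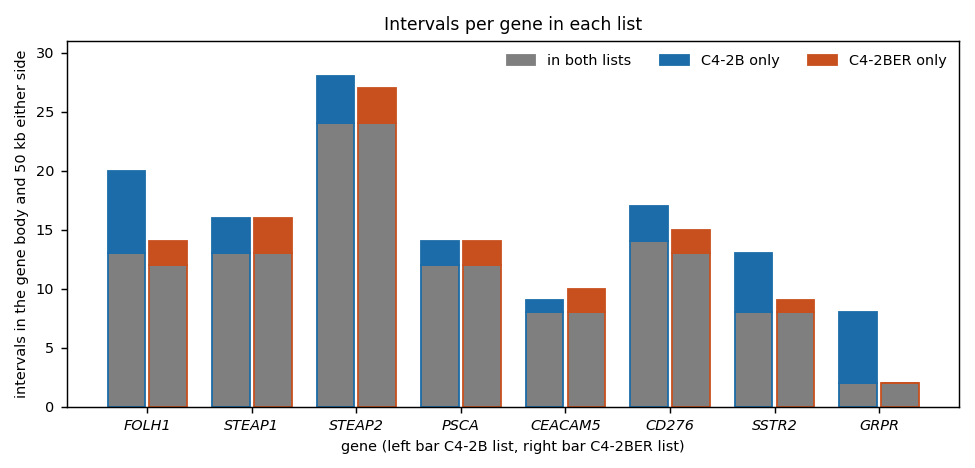
Number of accessible intervals (vertical axis) in the gene body and 50 kb either side of each gene, in the C4-2B list (left bar) and the C4-2BER list (right bar), split into intervals found in both lists (grey) and in 1 list only (blue or orange). GRPR had 8 and 2 intervals and FOLH1 20 and 14, while STEAP1 had 16 and 16.

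The genes did not share a pattern. The 5 genes FOLH1, STEAP2, CD276, SSTR2 and GRPR had fewer C4-2BER than C4-2B intervals, as 68.6% of all protein-coding genes did. STEAP1 with 16 and PSCA with 14 had the same number in both lists, and CEACAM5 had 9 in C4-2B against 10 in C4-2BER. The C4-2B-only share ran from 11.1% at CEACAM5 to 75.0% at GRPR.

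GRPR, the bombesin-type peptide receptor on chromosome X (chrX:16123565-16153518), had the most one-sided window of the 8. Its window held 8 C4-2B intervals and 2 C4-2BER intervals, and 6 of the 8 were C4-2B-only. Of the 17541 genes with at least 5 C4-2B intervals in their window, 0.696% had a C4-2B-only share as high as 75.0%. The promoter itself was open in both lists. Where values are given in pairs, here and for the other genes, C4-2B comes first. The promoter interval 0.1 kb upstream of the TSS had 87 summit reads in C4-2B against 60 in C4-2BER, and stood at rank percentile 89.7 and 90.2 of its own list, where 100 is the interval of lowest p-value. Its ratio, at equal depth and relative to the median of all shared intervals, was −0.13 on the log2 scale (95% counting interval −0.62 to 0.37). The only other shared interval lay 28.9 kb downstream and was weak, with 18 reads in C4-2B against 12 in C4-2BER. The C4-2B-only intervals lay on both sides of the gene and within it. The strongest, 61.3 kb downstream of the TSS and beyond the end of the gene, had 67 reads and percentile 84.7, and the second, 22.7 kb upstream, had 46 reads and percentile 78.6. Weaker ones lay 7.8 kb upstream with 28 reads, 2.1 kb downstream in an intron within the promoter range with 33 reads, 17.6 kb downstream in an intron with 31 reads, and 51.9 kb downstream with 17 reads. Scaled to the depth of C4-2BER, the site 22.7 kb upstream corresponded to 38.4 reads and the site 61.3 kb downstream to 56.0 reads. At the local background of these sites, scaled in the same way, 7 and 11 reads would have been enough to enter the C4-2BER list. Reads below that limit are not in the lists, so a smaller signal in C4-2BER cannot be read.

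The 150 bases centred on the summits of both sites are shown as the strongest C4-2B-only sites of the gene with the highest C4-2B-only share. They come from hg38, plus strand, at chrX:16184756-16184905 and chrX:16100813-16100962, outside any protein-coding gene. Capitals mark matches to the 15 motifs searched.

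GRPR 61.3 kb downstream: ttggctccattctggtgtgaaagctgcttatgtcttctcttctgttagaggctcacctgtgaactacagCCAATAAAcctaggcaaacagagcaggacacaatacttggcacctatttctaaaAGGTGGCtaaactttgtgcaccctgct

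GRPR 22.7 kb upstream: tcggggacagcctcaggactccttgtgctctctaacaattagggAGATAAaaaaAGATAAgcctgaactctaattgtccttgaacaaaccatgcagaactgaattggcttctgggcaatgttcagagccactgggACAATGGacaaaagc

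Counted from the first base shown, the downstream site held a HOXB13 match (CCAATAAA or CTCGTAAA) at position 70 and a CTCF core match (AGGNGGC) at 124. The upstream site held the GATA letters AGATAA at positions 45 and 55 and a SOX match (ACAATGG) at 136. Matches were taken on both strands, so the letters printed may be the reverse complement. A match describes the letters and is not a bound site.

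SSTR2, the somatostatin receptor that labelled somatostatin analogs bind in neuroendocrine tumors (chr17:73165010-73176633), had 13 C4-2B and 9 C4-2BER intervals, with 5 C4-2B-only and 1 C4-2BER-only. Its promoter interval, 0.1 kb upstream of the TSS, had 65 reads in C4-2B against 61 in C4-2BER and stood at percentile 78.9 and 84.3. The centred log2 ratio was 0.32 (−0.21 to 0.85), so the counting interval included no difference. Distal sites differed more. The strongest interval of the window in C4-2B, and by rank of all 8 genes, lay 50.7 kb downstream with 155 reads at percentile 99.2. It lies in an intron of another gene, FAM104A, and which gene it acts on was not tested. In C4-2BER this interval had 65 reads at percentile 88.7, a log2 ratio of −0.84 (−1.28 to −0.42), which was under the 2-fold limit used for a call. Its local background was 3.86 times the genome-wide floor of the C4-2B list against 2.29 times that of the C4-2BER list, and the part of this in the ratio was not tested. The interval 22.4 kb downstream had 86 reads in C4-2B at percentile 84.1 and was absent from the C4-2BER list, where 17 reads would have been enough at its scaled background. The interval 19.2 kb upstream was shared with 32 and 11 reads, a log2 ratio of −1.13 (−2.27 to −0.10), with summits 221 bp apart. The strongest C4-2BER interval of the window, 8.6 kb upstream, was shared and close to even, with 82 reads in C4-2B against 68 in C4-2BER. The 1 C4-2BER-only interval, 12.9 kb upstream, was weak, with 21 reads at percentile 34.1. C4-2B-only intervals lay in the promoter range of the neighbouring gene COG1 26.6 kb and 40.7 kb downstream, with 46 and 18 reads.

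The strongest shared site of the SSTR2 window, in the FAM104A intron, and the strongest line-only distal site of each list are shown, from hg38, plus strand, at chr17:73215629-73215778, chr17:73187383-73187532 and chr17:73152056-73152205.

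SSTR2 50.7 kb downstream, in both lists: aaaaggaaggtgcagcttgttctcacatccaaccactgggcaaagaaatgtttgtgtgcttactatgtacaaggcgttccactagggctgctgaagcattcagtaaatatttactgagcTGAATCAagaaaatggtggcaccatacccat

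SSTR2 22.4 kb downstream, C4-2B only: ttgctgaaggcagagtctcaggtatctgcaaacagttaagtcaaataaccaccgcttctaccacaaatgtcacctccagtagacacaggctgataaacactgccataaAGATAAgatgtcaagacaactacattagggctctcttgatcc

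SSTR2 12.9 kb upstream, C4-2BER only: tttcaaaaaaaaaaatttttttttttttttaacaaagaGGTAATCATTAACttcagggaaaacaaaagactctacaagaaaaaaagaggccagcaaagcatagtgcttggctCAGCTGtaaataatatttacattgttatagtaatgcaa

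The shared site held an AP-1 match (TGANTCA) at position 120, and the C4-2B-only site held the GATA letters at 109. The C4-2BER-only site held a match to the HNF1 motif at position 39, which was searched as GTTAAT, any base, then ATTAAC, with up to 1 mismatch, and an E-box (CAGCTG) at 113. The HNF1 motif lay within 100 bp of the summit in 1.29% of all C4-2BER-only distal intervals and in 0.0133% of all C4-2B-only distal intervals. No other line-only distal interval at the 8 genes held it.

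FOLH1 (chr11:49145092-49208638, minus strand) had 20 C4-2B and 14 C4-2BER intervals, with 7 C4-2B-only and 2 C4-2BER-only. The promoter interval at the TSS had 82 and 65 reads, percentile 77.8 in C4-2B against 82.5 in C4-2BER, and a centred log2 ratio of 0.08 (−0.42 to 0.56). A second promoter interval 0.6 kb upstream had 27 and 26 reads, and a weak C4-2B-only interval with 40 reads lay 1.4 kb downstream. The strongest FOLH1 intervals were not at the promoter but in its introns. The intron interval 17.5 kb downstream had 125 reads in C4-2B against 56 in C4-2BER, percentile 90.3 and 67.7, with a log2 ratio of −0.75 (−1.23 to −0.28). The one beside it, 16.8 kb downstream, had 107 and 42 reads, percentile 83.9 and 45.7, with a ratio of −0.94 (−1.49 to −0.41). The local background at this pair was high and alike, 6.66 and 6.25 times the floor of each list. The intron interval 30.4 kb downstream had 107 and 81 reads and a ratio of 0.01 (−0.43 to 0.44), and was the strongest of the window in C4-2BER at percentile 89.0. The order of the intronic sites thus differed between the lists, while the promoter differed by less than its counting error. On the other side of the gene, the weak shared intervals 22.1 kb and 23.4 kb upstream had 9 and 11 reads in C4-2B, against 17 and 19 reads in C4-2BER, with ratios of 1.33 (0.08 to 2.68) and 1.20 (0.05 to 2.42). Between them and the gene lay the strongest distal C4-2B-only interval, 20.7 kb upstream with 26 reads at percentile 52.9. The strongest distal C4-2BER-only interval lay in an intron 23.6 kb downstream with 29 reads at percentile 42.8.

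FOLH1 20.7 kb upstream, C4-2B only, chr11:49229275-49229424 in hg38, plus strand: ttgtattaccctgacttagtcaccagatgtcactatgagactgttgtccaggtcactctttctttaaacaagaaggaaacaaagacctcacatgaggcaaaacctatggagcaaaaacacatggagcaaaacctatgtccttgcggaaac

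This stretch held none of the 15 motifs and is printed as the strongest line-only distal site of a gene whose protein radioligands bind. Of the 34 FOLH1 intervals of both lists, 29 held at least one 50-base stretch with an exact copy elsewhere in the genome, at most 44.7% of an interval. Reads from such stretches may be shared with the copy or left out by the mapping quality filter. Such stretches were not confined to FOLH1, and 12 of 32 STEAP1 intervals held one. In the C4-2B-only intervals 3.0 kb and 2.1 kb downstream of the STEAP1 TSS, 33.3% and 17.9% of stretches had a copy. At the GRPR site 61.3 kb downstream 17.3% did.

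STEAP1 (chr7:90154456-90164829) and STEAP2 (chr7:90167590-90238137) lie side by side on the plus strand. STEAP1 had 16 intervals in each list with 3 line-only in each, and STEAP2 had 28 and 27 with 4 C4-2B-only and 3 C4-2BER-only. Both main promoters were among the strong intervals of both lists. The STEAP1 promoter had 126 reads in C4-2B against 107 in C4-2BER, percentile 86.4 and 90.6, and a log2 ratio of 0.17 (−0.21 to 0.56). A weaker STEAP1 promoter interval 1.6 kb upstream had 49 and 35 reads and a ratio of −0.07 (−0.74 to 0.58). The main STEAP2 promoter had 153 and 129 reads, percentile 87.7 and 93.3, and a ratio of 0.16 (−0.18 to 0.51). None of these differed beyond counting error. STEAP2 had the window with the most intervals of the 8, and 96.2% of all genes had fewer in C4-2B against 98.2% in C4-2BER. A further STEAP2 promoter interval did differ. It lay in an intron 2.0 kb downstream of the canonical TSS, with 115 reads in C4-2B against 40 in C4-2BER. Its percentile was 69.6 and 12.6, with a ratio of −1.11 (−1.67 to −0.58). The site 35.0 kb upstream of STEAP1 went the other way, with 22 and 38 reads, percentile 44.6 and 74.5 and a ratio of 1.20 (0.40 to 2.03). Within STEAP2, the interval 19.8 kb downstream of the canonical TSS had 121 and 55 reads and a ratio of −0.73 (−1.21 to −0.26). At the 24 shared STEAP2 intervals the median local background was 5.04 times the genome-wide floor in C4-2B against 3.62 times it in C4-2BER, beside 1.67 and 1.48 over all shared intervals. Its part in these ratios was not tested. The strongest STEAP2-window interval in C4-2B was the promoter of CFAP69, a gene for a ciliary protein, 33.4 kb downstream with 130 and 93 reads.

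The line-only sites at the STEAP genes differed in strength. Of the 3 stronger ones in C4-2B, 1 lay in an intron of STEAP1 3.0 kb downstream with 61 reads. Another was a STEAP1 promoter interval, in intron sequence 2.1 kb downstream with 59 reads. The third lay in an exon of STEAP2 15.7 kb downstream with 78 reads. These 3 were on local background of at least 8.14 times the floor. The remaining C4-2B-only interval, 19.0 kb downstream of the STEAP1 TSS, had 10 reads at percentile 2.27 on background of 1.05 times the floor. In C4-2BER the strongest distal one lay 11.7 kb upstream of the canonical STEAP2 TSS with 16 reads. Weak C4-2BER-only intervals also lay near the far STEAP2 TSS, 45.0 kb and 43.7 kb upstream of the canonical one, with 13 and 9 reads. A shared interval at that far TSS, 45.9 kb upstream, had 10 and 13 reads.

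STEAP1 3.0 kb downstream, C4-2B only, chr7:90157431-90157580 in hg38, plus strand: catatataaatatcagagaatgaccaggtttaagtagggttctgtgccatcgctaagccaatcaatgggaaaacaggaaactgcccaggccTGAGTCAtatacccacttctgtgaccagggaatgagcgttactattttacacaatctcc

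The capitals mark the AP-1 letters at position 92.

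**Figure D2:**
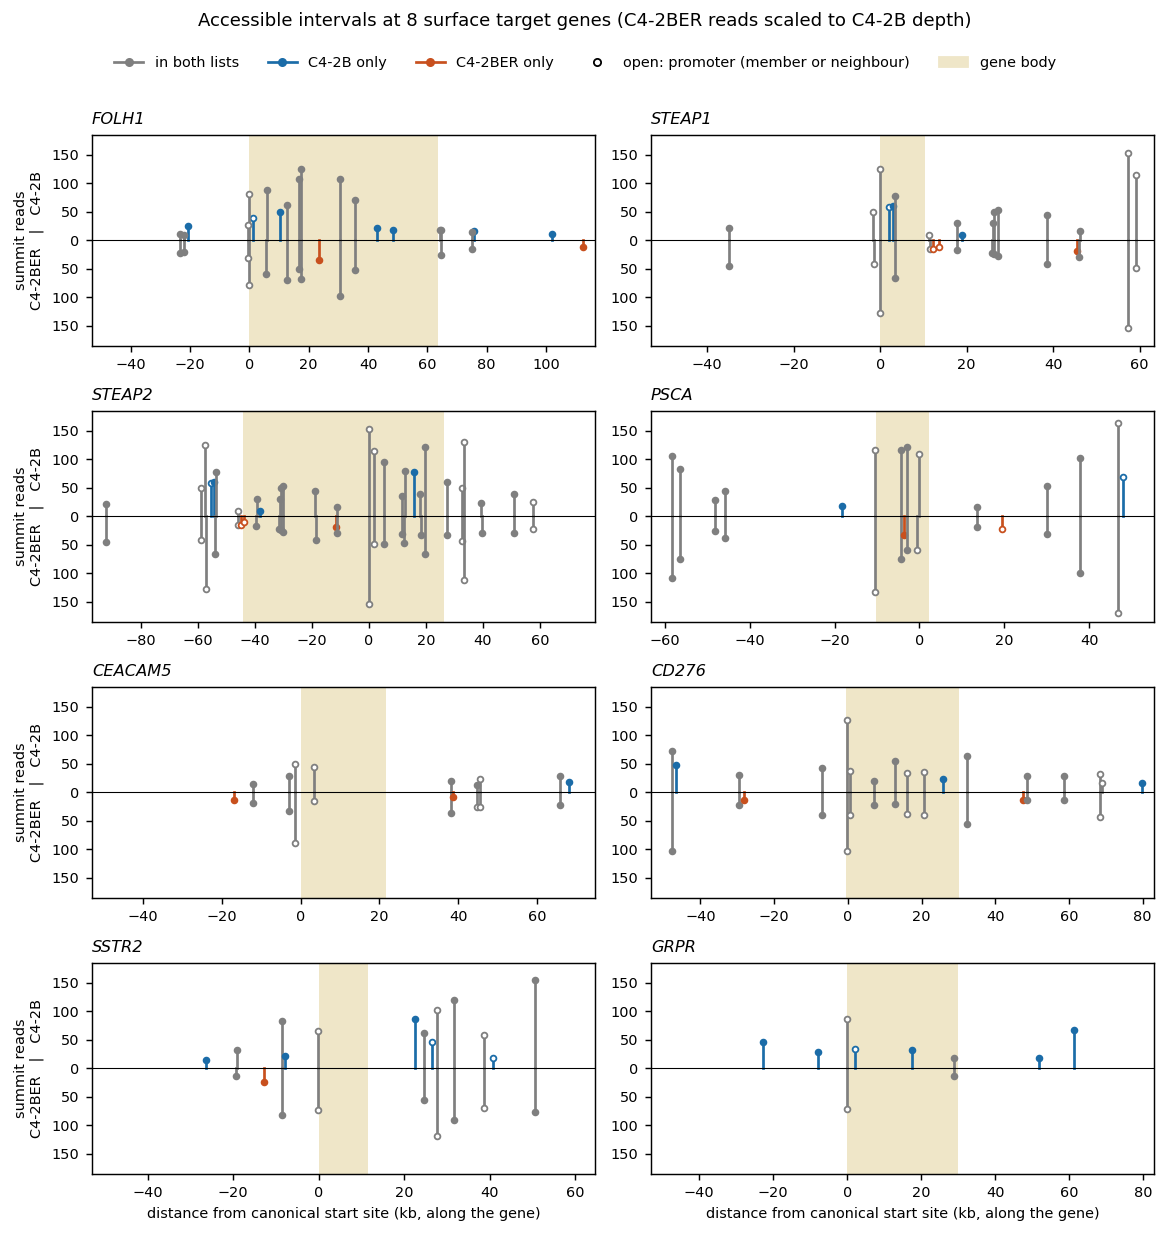
Accessible intervals by distance from the canonical TSS (horizontal axis, kb along the direction of the gene) with summit reads above the line for C4-2B and below it for C4-2BER, scaled to C4-2B depth. Grey sites are in both lists, blue in C4-2B only and orange in C4-2BER only, open circles are promoter intervals of the gene or a neighbour, and the shaded span is the gene body. Blue sites in and around GRPR have 17 to 67 reads, and the tall site 50.7 kb downstream of the SSTR2 TSS has 155 reads in C4-2B and 65 before scaling in C4-2BER.

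PSCA (chr8:142670308-142682725) had 14 intervals in each list, with 12 shared and 2 line-only in each. Its promoter interval had 109 reads in C4-2B against 49 in C4-2BER, percentile 72.8 and 59.7, and a log2 ratio of −0.74 (−1.26 to −0.24), with summits 487 bp apart. The C4-2BER interval ended upstream of the canonical TSS. Outside CEACAM5, no other strongest promoter interval had a counting interval wholly on one side of 0. Sites just upstream followed the same order, with 121 and 49 reads 3.0 kb upstream, a ratio of −0.89 (−1.40 to −0.40), and 116 and 63 reads 4.3 kb upstream, a ratio of −0.47 (−0.94 to −0.02). None of these reached 2-fold relative to the median of all shared intervals. At equal depth alone the site 3.0 kb upstream did, with a ratio of −1.05, while the promoter was at −0.89. The local background moved the same way, from 11.0 to 5.82 times the floor of each list at the promoter, 10.0 to 5.41 at 3.0 kb and 9.57 to 5.18 at 4.3 kb. The fold over local background was 4.28 and 4.21 at the promoter, 5.20 and 4.50 at 3.0 kb and 5.22 and 5.99 at 4.3 kb. The part of the background in these ratios was not tested. The strongest intervals of the window lay at promoters of neighbours and were close to even. The JRK promoter, 10.5 kb upstream, which also covers the start of PSCA transcripts annotated without a coding sequence, had 117 and 111 reads, and THEM6, 46.7 kb downstream, had 164 and 142. Of the line-only intervals, the strongest was in the THEM6 promoter range in C4-2B, 47.9 kb downstream with 69 reads, and at the LY6K promoter in C4-2BER, 19.5 kb downstream with 19 reads at percentile 46.3. The strongest distal ones were weak, with 18 reads in C4-2B 18.2 kb upstream and 27 in C4-2BER 3.6 kb upstream.

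CEACAM5 (chr19:41708585-41730433) was the gene with the highest median ratio, 0.51 over 8 shared intervals, and 6 of the 8 were above 0. Its 2 promoter intervals ranked in opposite order in the lists. The one 1.6 kb upstream, also within the promoter range of the gene ENSG00000267881, had 49 reads in C4-2B against 75 in C4-2BER, percentile 69.9 and 89.7, with a log2 ratio of 1.02 (0.49 to 1.57). At equal depth alone, not set relative to the median of all shared intervals, this ratio was 0.87, under 2-fold. The one in an intron 3.3 kb downstream of the canonical TSS had 45 and 13 reads, percentile 70.7 and 6.02, with a ratio of −1.38 (−2.40 to −0.47). Toward CEACAM6, the interval 38.2 kb downstream had 19 and 30 reads, a ratio of 1.07 (0.19 to 1.98), and the interval 44.7 kb downstream had 12 and 21 reads, a ratio of 1.22 (0.13 to 2.37). The C4-2BER interval of this last pair also lay within the CEACAM6 promoter range, while the C4-2B interval did not. The CEACAM6 promoter interval found in both lists, 45.5 kb downstream, had 23 and 21 reads and a ratio of 0.28 (−0.65 to 1.20). With promoters cut to 1000 bp around a TSS, CEACAM5 had no promoter interval in either list. Line-only sites were few and weak: 1 in C4-2B, 68.3 kb downstream with 18 reads, and 2 in C4-2BER, of which the stronger lay 17.1 kb upstream with 12 reads.

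CD276 (chr15:73683966-73714514) had 17 C4-2B and 15 C4-2BER intervals, with 3 C4-2B-only and 2 C4-2BER-only. The main promoter had 127 reads in C4-2B against 86 in C4-2BER, percentile 93.2 and 88.2, and a log2 ratio of −0.15 (−0.56 to 0.25). The other promoter intervals, near further TSSs 0.6 kb, 16.1 kb and 20.6 kb downstream, had 38 and 34, 34 and 32, and 35 and 33 reads. All 4 CD276 promoter intervals were thus shared, with counting intervals that included 0. A distal interval in an intron 12.8 kb downstream had 54 and 17 reads, percentile 72.4 and 23.7, with a ratio of −1.26 (−2.14 to −0.45). The interval 47.8 kb upstream had 72 and 86 reads and a ratio of 0.67 (0.20 to 1.14), and was the strongest distal interval in C4-2BER at percentile 83.3. The strongest distal C4-2B-only interval lay in an intron 25.8 kb downstream with 23 reads. The strongest distal C4-2BER-only interval, 47.5 kb downstream with 11 reads, held exact copies elsewhere in the genome over 57.5% of its 50-base stretches.

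**Figure D3:**
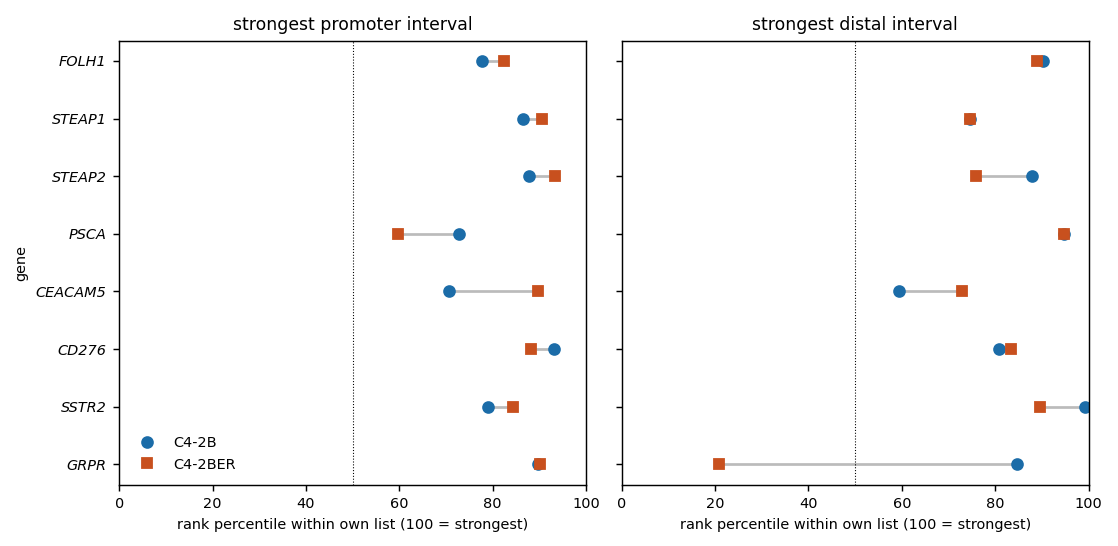
Rank percentile within its own list (horizontal axis, 100 is strongest) of the strongest promoter interval (left panel) and strongest distal interval (right panel) of each gene, for C4-2B (circles) and C4-2BER (squares). Promoters of 7 genes lie above percentile 70 in both lists and that of PSCA is at 72.8 and 59.7, while the strongest distal GRPR interval is at 84.7 in C4-2B against 20.9 in C4-2BER. The strongest interval can be a different site in each list. For GRPR the distal one lies 61.3 kb downstream in C4-2B and 28.9 kb downstream in C4-2BER, and the CEACAM5 promoter interval also differs.

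The 79 intervals found in both lists were compared as a whole. Their log2 ratios at equal depth were set relative to the median of all 91220 shared pairs, which was −0.15. The median over the 8 genes was 0.00, with 39 pairs below 0 and 40 above. At a 2-fold limit 4 pairs were lower in C4-2BER, beside 10.3% of all pairs, and 6 were higher, beside 3.84%. The 4 lower pairs were those at STEAP2, CEACAM5, CD276 and SSTR2 given above, and the 6 higher were at FOLH1, STEAP1 and CEACAM5. The split depends on the scaling: without centring 8 pairs were lower and 4 higher, and centred on shared promoter pairs 15 were lower and 1 higher. Without centring the lower pairs also included FOLH1 16.8 kb downstream at −1.09 and PSCA 3.0 kb upstream at −1.05. All 4 lower pairs kept their call under both scalings, while 4 and then 1 of the 6 higher pairs did, and no called pair changed sign. Without centring, CEACAM5 1.6 kb upstream and 38.2 kb downstream were at 0.87 and 0.92, under the limit. Centred on shared promoter pairs, the 1 kept was FOLH1 22.1 kb upstream, so no CEACAM5 higher call was kept.

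**Figure D4:**
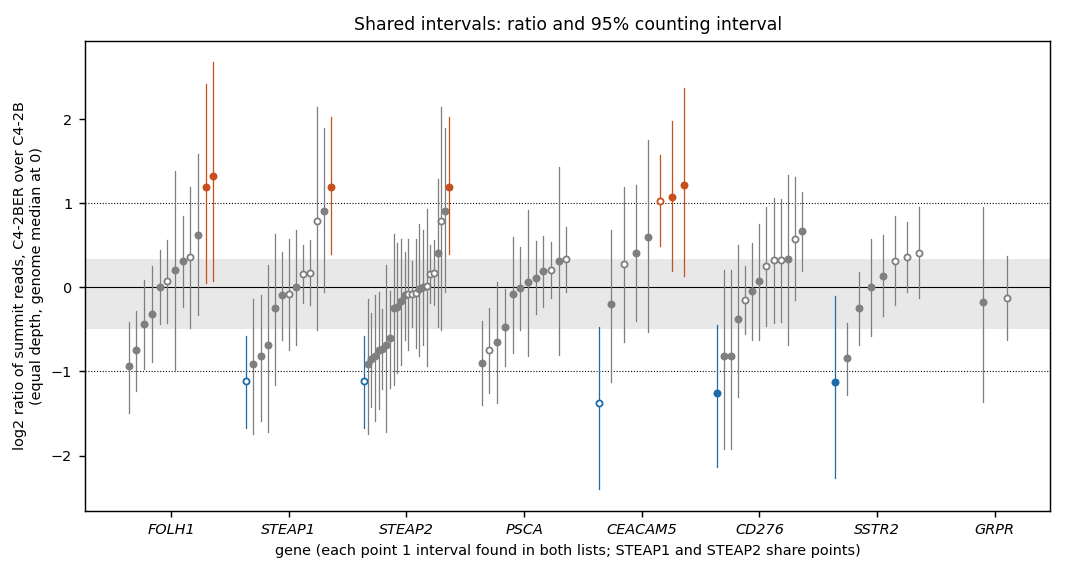
Log2 ratio of summit reads, C4-2BER over C4-2B, at equal depth with the genome median at 0 (vertical axis), for each interval found in both lists at each gene, with its 95% counting interval. Blue and orange points passed 2-fold, open circles are promoter intervals and the grey band holds the middle quartiles of all pairs, −0.49 to 0.34. CEACAM5 has 3 points above and 1 below the 2-fold lines, and the 2 GRPR points lie near 0.

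The letters around the summits gave a description of the distal sites. Among the 22 C4-2B-only distal intervals, the androgen response element (GNACA, any 3 bases, TGTNC) was found in 0, beside 2.9% of all C4-2B-only distal intervals, and the forkhead letters TGTTTAC in 1, beside 12.5%. The GATA letters were found in 5, beside 14.8%, the CTCF core in 4, beside 13.2%, and HOXB13 in 2, at FOLH1 and GRPR, beside 1.83%. Among the 55 shared distal C4-2B intervals the androgen response element was found in 0, beside 0.906% of all shared distal C4-2B intervals. The CTCF core was found in 18 of the 55, beside 21.6%. Of the 9 C4-2BER-only distal intervals 3 held an E-box, beside 13.3% of all C4-2BER-only distal intervals, and 3 the GATA letters, beside 10.2%. These counts are small, and a window with none of these letters says nothing of a factor.

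Relatives of the 8 genes were read by the same promoter rule, under which 2.83% of all protein-coding genes had a promoter interval in C4-2B only and 3.39% in C4-2BER only. In the LY6 family of PSCA, 2 of 9 genes had a promoter interval in both lists, 3 in C4-2B only, 1 in C4-2BER only and 3 in neither. LY6K, with 19 reads, was the one in C4-2BER only, and SLURP1 with 67 and LYPD2 with 23 reads were among those in C4-2B only. In the CEACAM family 7 of 11 had one in both lists and 4 in neither. In the B7 family of CD276, 6 of 9 had one in both, HHLA2 in C4-2BER only with 23 reads, and PDCD1LG2, the gene of PD-L2, in C4-2B only with 15. Both other STEAP genes and 2 of 3 FOLH1 relatives had one in both lists. Among peptide receptors and ligands, 5 of 10 had one in both, 1 in C4-2B only and 1 in C4-2BER only, which was SSTR1, a further somatostatin receptor, with 32 reads at percentile 71.9. Of 27 other surface proteins pursued as targets in carcinoma, 19 had a promoter interval in both lists. FAP, a fibroblast surface protease, with 49 reads and CLDN18, a tight junction protein, with 23 reads were among the 3 in C4-2B only. F3, tissue factor, with 52 reads at percentile 83.5 and CDH17, an intestinal cadherin, with 16 reads were the 2 in C4-2BER only.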

How the data were processed

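The data were ATAC-seq libraries of C4-2B and C4-2BER cells, 2 per line. The authors trimmed adapters, aligned read pairs to hg38 with Bowtie2, filtered on mapping quality, removed duplicates with Picard, merged the replicates of a line and called peaks with macs2 without a fragment model, with reads extended to 200 bp. The submitters' processing notes also name FastQC and bedtools 2.17. The macs2 version and threshold are not given in the sources used here. The deposited lists hold 1 row per summit, with a fold enrichment over local background, a −log10 p and a −log10 q as the authors' peak caller wrote them, and the summit offset. The deposited display score was not used, and every column of values belonged to 1 line.

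Rows with the same interval were joined and given the values of the summit of highest −log10 p. Rank percentiles follow −log10 p within a list. The summit reads and local background of each row were recovered from its fold and −log10 p under a Poisson tail, to within 0.001 of the deposited value for 100% of rows. The recovery was checked on simulated data. The most common, and lowest, background set the depth, 30.2 M reads for C4-2B against 25.2 M reads for C4-2BER, where M is 1000000, if macs2 used a genome of 2700000000 bp. At that background 8 reads entered the C4-2B list and 7 the C4-2BER list. Shared means an overlap of at least 1 bp. Gene models were GENCODE release 44, hg38, whose chromosome lengths hold all intervals. Ratios are log2 of summit reads at equal depth minus the median of all shared pairs, called at 2-fold. Their 95% intervals are exact binomial (Clopper-Pearson), and shares have Wilson intervals. PCR reads carry no molecular identifiers, so both cover counting error only. Motifs were searched within 100 bp of the summit, and copies as exact 50-base stretches, sampled every 5 bases.

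The members, gene lists and motifs were chosen with earlier results of these data known. The result of 1 marker gene is not reported here. The text names all promoter intervals, the strongest interval and the strongest distal line-only intervals of each gene, every 2-fold pair, neighbours whose promoters these are, and up to 5 listed genes per direction with a promoter interval in 1 list. Sequences follow a rule of the strongest distal line-only intervals with a −log10 q of at least 10. Those it also gave for STEAP2 15.7 kb downstream and CD276 25.8 kb downstream held none of the 15 motifs in the 150 bases and are not printed. Those of GRPR 22.7 kb upstream, SSTR2 12.9 kb upstream and SSTR2 50.7 kb downstream, and the further sites given for each gene, were added after their values were seen. Alternatives covered the lists' threshold, length and depth, the overlap, window, promoter and scaling. Python 3.11.15, numpy 2.4.6, pandas 2.3.3, scipy 1.17.1, pysam 0.24.0, matplotlib 3.10.9 and samtools 1.23.1 were used.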

Additional observations from a re-analysis of the deposited data

How the results depend on the processing

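No paired analysis was possible because each line's replicates had been merged into 1 peak list, and for the same reason no replicate could be left out. Of the 77 recomputed values of the 7 results for the 8 genes together, 65 stayed within their limits, which were 1.5 times for a count and the 95% interval for a share or the median ratio. At a −log10 q of at least 10, 50 C4-2BER intervals were left and the C4-2B-only share was 37.8%, beside 42.5% of the whole list. With the top 50000 intervals of each list, 43 C4-2B and 39 C4-2BER intervals were left. With the C4-2B list shortened to the length of the C4-2BER list, the C4-2BER-only share was 25.3%, beside 27.7% of the whole list. In the gene bodies alone there were 47 and 40 intervals and a median log2 ratio of −0.17, and with 10 kb either side 63 and 53 intervals. The median log2 ratio was −0.15 without centring and −0.26 when centred on shared promoter pairs. The fewer intervals follow from the shorter lists and windows, and the cause of the other changes was not tested. With C4-2B brought to the depth of C4-2BER the counts were 109 and 91 and the shares 25.7% and 13.2%, as reported. For the interval counts of single genes, 195 recomputed values stayed within 1.5 times the reported count and 141 moved. Under these alternatives the C4-2B-only count ran from 0 to 6 at SSTR2, 0 to 7 at PSCA and 1 to 8 at CD276. At GRPR the C4-2B-only count was 5 at a −log10 q of at least 10 and 2 among the top 50000, and C4-2BER-only intervals numbered 0 under all 12 alternatives run for it. With promoters of 1000 bp, 7 of the 8 genes had a promoter interval in both lists, without CEACAM5. The depth limits what can be said of sites under 7 to 8 reads, which the lists do not hold. That limit applies at the lowest background and rises with the local background. At the C4-2B-only site 15.7 kb downstream in STEAP2, 34 reads would have been needed to enter the C4-2BER list.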
